A study of Mus musculus with 8 samples.

Results

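The resting transcriptome of RAW264.7 cells was read from the unstimulated library, which is 1 of the 8 libraries of an LPS time course and the one labelled 0 min. RAW264.7 is a mouse macrophage-like line that grows continuously in culture. It served here as cells grown in DMEM with fetal bovine serum, and the other 7 cultures differed from it by exposure to LPS, the endotoxin of Gram-negative bacteria, at 100 ng/ml for 15, 30, 45, 60, 75, 90 or 120 min. The labels give the RNA fraction as cytoplasmic and the molecule as total RNA. For the time course, the study describes isolation of total RNA. Ribosomal RNA was depleted, and every gene of the count table was taken, 23143 in all, of which 20407 carry an mRNA accession. The unstimulated library holds 131039483 counts, and the other 7 hold 100250892 to 159077286. There was 1 library per time point, so no value below has a replicate check, no test was made, and the 95% intervals cover counting error only. Reads from PCR-amplified libraries without molecular identifiers are not independent molecules.

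Macrophages are phagocytes that take up particles, degrade them in lysosomes and sense microbial products through pattern recognition receptors. The lineage is specified by the transcription factor PU.1 (encoded by Spi1) and depends in tissues on CSF-1 acting on the receptor Csf1r. LPS is handed by Cd14 to the complex of Tlr4 and Ly96, which signals through the adaptors Myd88 and Ticam1 to NF-kB, MAP kinases and interferon regulatory factors. Macrophages carry much of the machinery of this response before the signal, while many of its products are transcribed on demand.

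Levels within the library are given as cpm, the count scaled to a total of 1000000. Levels of different genes are set side by side as rpkm, that is cpm per kb of unique 58-mers, the stretches of 1 read length that occur in the transcripts of that gene and in those of no other gene with a length. In this library 14666 genes had a read and 8477 had none, and a count of 0 allows up to 3 counts, or 0.0229 cpm. Of 22648 genes with a length, 9764 (43.1%) reached 1 rpkm, which is the limit used here for a detected RNA. Of all 23143 genes, 36.6% had no read. The shares of 43.1% and 36.6% are the background for all counts of list members below.

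The 4 markers of the cell type were abundant. Lyz2, which encodes lysozyme M, had 575999 counts, or 4396 cpm (4809 cpm without Rn45s) and 3925 rpkm. Csf1r had 142496 counts and 285 rpkm (95% interval 284 to 287). Cd68, a lysosomal membrane glycoprotein of macrophages, had 38760 counts and 252 rpkm (249.7 to 254.7). Spi1, which the table lists under its older symbol Sfpi1, had 31968 counts and 123 rpkm (122 to 125). Their ranks among genes with at least 100 unique 58-mers were 8, 253, 281 and 590. Lyz2 thus stood with the translation factors and the ribosomal proteins, and the 3 others lay in the upper 3 of 100 genes by rpkm. Lyz2 shares sequence with Lyz1, which was listed at 317 rpkm, and reads common to both were discarded by the authors, so the levels of both are uncertain.

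All 4 markers of the labelled cell type were thus present, and they were compared over the time course as cpm without Rn45s. In bulk RNA, fewer cells of a type and less RNA per cell cannot be told apart. Lyz2 had 4809 at rest and, in order of time from 15 to 120 min, 4170, 4064, 3912, 3984, 3849, 3798 and 3378. The unstimulated library was the highest of the 8 for Lyz2 and also for Cd68, which had 324 at rest and 281 to 305 in the stimulated libraries. Csf1r had 1190 at rest and 879 to 1225 later, and Spi1 267 at rest and 262 to 367 later. The highest of the 8 values was 1.42 times the lowest for Lyz2, 1.15 times for Cd68, 1.39 times for Csf1r and 1.40 times for Spi1. The resting values of Csf1r and Spi1 therefore lay within the range of the other 7.

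The promoters of 2 of these markers, of a ribosomal protein gene and of an inflammatory gene are printed here as examples. Their levels at rest ran from 3925 rpkm for Lyz2 to 0.264 rpkm for Il1b, the gene of interleukin-1 beta. Each is the 250 bases before the RefSeq start on GRCm38.p6, minus strand, read 5′ to 3′, with CG dinucleotides in capitals. The windows are chr10:117282273-117282522 for Lyz2, chr11:69666171-69666420 for Cd68, chr10:128549169-128549418 for Rpl41 and chr2:129371140-129371389 for Il1b.

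Lyz2: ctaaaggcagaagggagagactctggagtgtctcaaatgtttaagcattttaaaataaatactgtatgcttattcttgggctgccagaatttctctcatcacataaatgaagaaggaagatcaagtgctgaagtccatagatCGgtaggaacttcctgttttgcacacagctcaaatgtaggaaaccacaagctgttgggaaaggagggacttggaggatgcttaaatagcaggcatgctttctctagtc

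Cd68: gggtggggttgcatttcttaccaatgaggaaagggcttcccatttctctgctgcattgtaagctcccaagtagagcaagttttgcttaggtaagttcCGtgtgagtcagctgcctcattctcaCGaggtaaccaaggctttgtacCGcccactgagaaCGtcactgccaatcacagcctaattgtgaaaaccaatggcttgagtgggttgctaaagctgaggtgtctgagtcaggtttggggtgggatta

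Rpl41: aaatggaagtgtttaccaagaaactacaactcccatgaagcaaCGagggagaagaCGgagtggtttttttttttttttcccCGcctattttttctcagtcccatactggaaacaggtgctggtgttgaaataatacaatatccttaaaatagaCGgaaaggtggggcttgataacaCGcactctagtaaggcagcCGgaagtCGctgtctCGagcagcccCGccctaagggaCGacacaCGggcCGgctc

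Il1b: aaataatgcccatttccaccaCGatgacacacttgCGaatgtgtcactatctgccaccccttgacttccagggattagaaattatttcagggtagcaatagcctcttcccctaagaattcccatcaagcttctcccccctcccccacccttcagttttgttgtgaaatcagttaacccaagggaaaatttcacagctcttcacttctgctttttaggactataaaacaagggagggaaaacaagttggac

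The printed stretch holds 1 CG for Lyz2, 4 for Cd68, 12 for Rpl41 and 2 for Il1b. Rpl41, a small protein of the large ribosomal subunit, had 3019 rpkm, so Lyz2 and Rpl41 reached like levels from promoters of unlike composition. Over the 300 bases that include 50 bases after the start, the ratio of observed to expected CG was 0.0680 for Lyz2, 0.240 for Cd68, 0.877 for Rpl41 and 0.202 for Il1b.

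This ratio was next set against abundance over 13461 mRNA genes with 1 promoter entry. Its median was 0.219 for the 4829 genes without a read, 0.463 for the 2458 below 1 rpkm, 0.784 for the 2477 at 1 to 10 rpkm and 0.828 for the 3171 at 10 to 100 rpkm. It was 0.823 for the 470 genes at 100 to 1000 rpkm and 0.833 for the 56 above that. CG-rich promoters thus went with detection rather than with the level above 10 rpkm. The letters TATAAA, searched on both strands, were present in 24.3% of promoters without a read, 5.61% at 10 to 100 rpkm, 30.4% above 1000 rpkm and 13.9% of all.

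**Figure D1:**
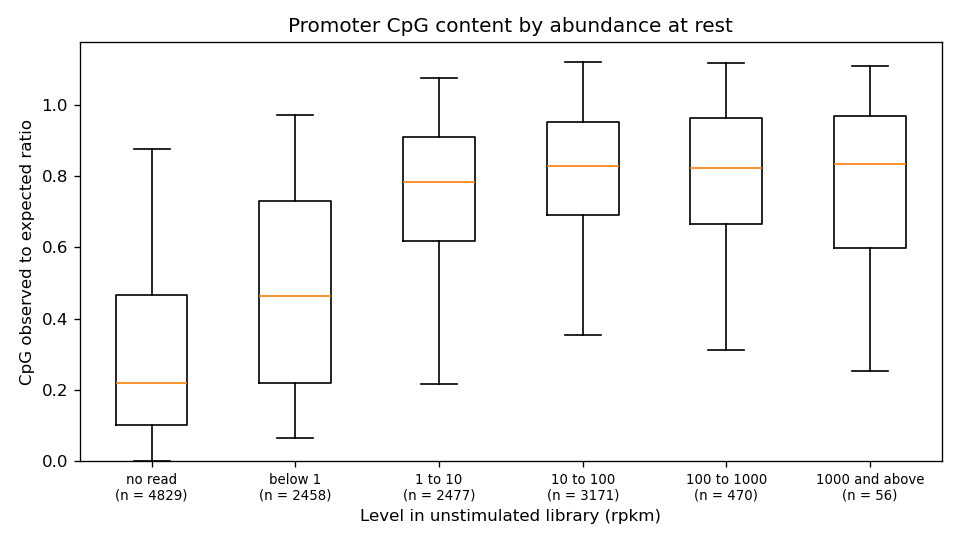
Observed to expected CG ratio (vertical axis) of 300-base promoters by level in the unstimulated library (horizontal axis, rpkm). Boxes give quartiles with the median, whiskers the 5 and 95 percentiles, and the median rises from 0.219 without a read to 0.828 at 10 to 100 rpkm and stays near it above.

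The motif GAGGAAGT, a form of the sequence bound by PU.1, was searched as an exact match, so near matches were not counted. It was found on either strand in 3.04% of all promoters, 2.48% of those without a read and 3.63% of those at 10 to 100 rpkm. A start at C followed by 4 pyrimidines, the mark of mRNAs of the translation machinery, was found in 2.27% of all promoters and in 11 of 49 ribosomal protein promoters. Only the annotated start was scored, so a true start a few bases away would be missed and these shares may be too low. Macrophage identity genes had a median CG ratio of 0.349 over 76 promoters, and the motif GAGGAAGT in 6 of them. The 2 marker promoters with an entry, those of Lyz2 and Cd68, had no exact match to either GAGGAAGT or TATAAA in this window. Whether they hold other sites for PU.1 was not tested. The promoters of 75 cytokine genes had a median ratio of 0.214 and TATAAA in 25 of them. Those of 30 feedback inhibitors had a median of 0.795, those of 25 immediate early genes 0.837 and those of 23 proliferation genes 0.935. The cytokine list thus had a lower median than the 3 other lists, and no test was made of this. Its median was close to the 0.220 of phagocyte surface proteins and the 0.219 of promoters without a read. A low ratio was therefore not particular to cytokines.

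The most abundant RNAs of the resting cells were housekeeping RNAs. Rn45s, the ribosomal RNA precursor, held 8.59% of the counts (Clopper-Pearson 95% interval 8.58 to 8.59) in spite of the depletion. The 20 most abundant RNAs held 18.3% of all counts and, with Rn45s left out, 10.8% of the rest. Without Rn45s, 122 genes held 25% of the counts, 702 held 50%, 2415 held 75% and 4739 held 90%. RNAs with a non-coding accession held 11.8% of the counts and, without Rn45s, 3.49%, and Rpph1 and Rmrp together held 2.55%.

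Rpph1, the RNA of ribonuclease P, had 13064 cpm, and Rmrp, the RNA of ribonuclease MRP, had 10208 cpm. Per length they stood apart, with 49864 and 47702 rpkm. The next RNA with at least 100 unique 58-mers was the histone gene Hist2h2bb with 7769 rpkm. The mRNA with the most counts was Eef1a1, the elongation factor that brings aminoacyl-tRNA to the ribosome, with 12694 cpm and 7308 rpkm. It was followed by Pkm, the pyruvate kinase of the last step of glycolysis, with 9090 cpm, by Actb, the beta-actin gene, with 7193 cpm, and by the chaperone gene Hspa8 with 6695 cpm. Thus protein synthesis, glycolysis, the actin skeleton and protein folding each had a member among the leading RNAs.

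The remaining RNAs among the 20 with the most counts beside Rn45s were Ftl1, the ferritin light chain, with 3528 cpm, Ptma, Ppia, the cyclophilin A gene, Eef2, the translocation factor, Hsp90ab1, S100a4, the endoplasmic reticulum chaperone Hspa5 and the ribosomal protein genes Rpl4, Rplp0, Rpsa, Rplp1 and Rps3a. They lay between 2237 cpm for Hspa5 and 3528 cpm for Ftl1. Of these 20 RNAs, 14 were also among the 20 highest per length. The 6 that took their places per length were Gm15772, Rpl41, Gm20594, Rps18, Cst3, which encodes the protease inhibitor cystatin C, and Rps12, at 2421 to 3625 rpkm.

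**Figure D2:**
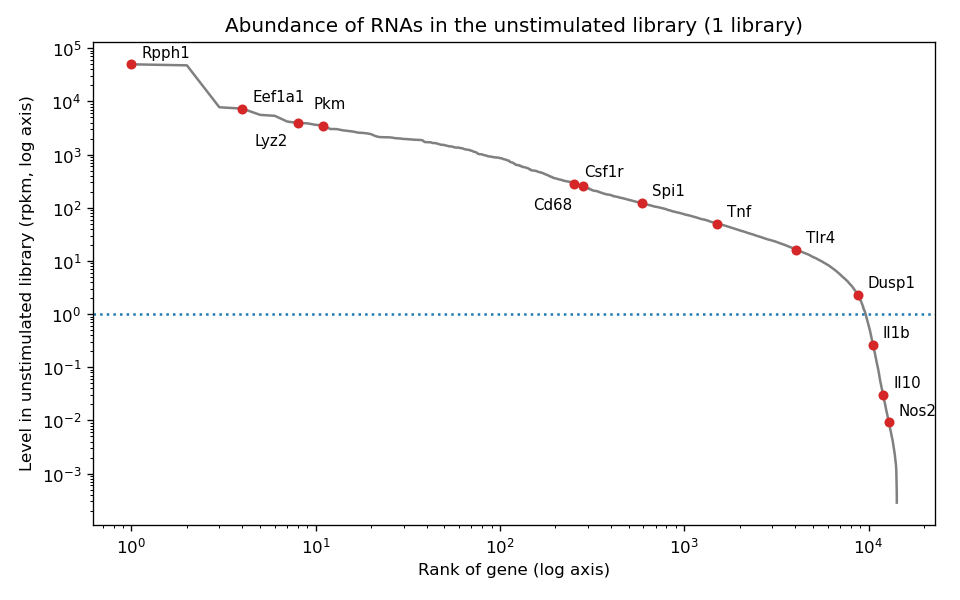
Level of each RNA with a read and at least 100 unique 58-mers (vertical axis, rpkm, log scale) against its rank (horizontal axis, log scale) in the unstimulated library. Rpph1 leads at 49864 rpkm, Lyz2 stands at rank 8, Tlr4 at 16.3 rpkm and Il1b below the dotted line that marks 1 rpkm.

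Ribosomal proteins made up the largest block among the families counted. All 77 cytoplasmic ribosomal protein genes had reads, with a median of 1299 rpkm and 8.70% of the counts without Rn45s. Among genes with at least 100 unique 58-mers, 80 were at 1000 rpkm or more, and 46 of these were cytoplasmic ribosomal protein genes. Their reads are shared with many pseudogenes, and their levels are uncertain for that reason. All 76 mitochondrial ribosomal protein genes were detected as well, at a median of 43.8 rpkm. Of the 40 proteasome genes 38 reached 1 rpkm (median 116), and so did 44 of 45 genes for subunits of respiratory complex I (median 90.5). The 62 histone genes had a median of 307 rpkm and held 1.64% of the counts without Rn45s. Of those with at least 100 unique 58-mers, 10 were at 1000 rpkm or more. Histone genes are near-identical copies, so their levels are uncertain as well.

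The genes of phagocyte identity were described by 6 lists. Phagocyte signalling proteins were complete, with 18 of 18 adaptors and kinases at 1 rpkm or more (median 53.4 rpkm, against 0.111 for all genes with a length). Tyrobp, the adaptor of Trem2 and many other myeloid receptors, had 789 rpkm, and Coro1a, an actin-binding protein of leukocytes, 583. They were followed by Laptm5 at 353 rpkm, Arhgdib at 252 and Ptpn6, the phosphatase SHP-1, at 232. The lowest of this list was Aif1, which encodes Iba1, at 2.02 rpkm.

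The 6 genes of the phagocyte oxidase, the enzyme that makes superoxide in the respiratory burst, all reached 1 rpkm, at a median of 123 rpkm. Cyba, the smaller membrane subunit, had 504 rpkm and Cybb, the catalytic membrane subunit, 134. The cytosolic subunits Ncf1 and Ncf4 had 158.8 and 112 rpkm, and the GTPase Rac2 had 78.1.

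Of 26 lysosomal genes, 25 reached 1 rpkm, and their median was 111. Cst3 had 2505 rpkm, and the proteases and their partners followed with cathepsin Z (Ctsz) at 561, cathepsin D (Ctsd) at 433, prosaposin (Psap) at 396 and the membrane protein Lamp1 at 363. Cathepsin H (Ctsh) was the exception at 0.284 rpkm and 58 counts.

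Phagocyte surface proteins were a mixed list, with 19 of 28 at 1 rpkm or more. The highest were Cd14 at 320 rpkm, Trem2 at 258, the fractalkine receptor Cx3cr1 at 164, the scavenger receptor Cd36 at 150 and Sirpa, the receptor of the CD47 signal, at 109. Mertk, a receptor for the uptake of apoptotic cells, and Ly6c2, a marker of inflammatory monocytes, had no read. Mrc1, the mannose receptor, had 24 counts and Axl, a relative of Mertk, 494 counts or 0.880 rpkm. Emr1, which encodes F4/80, had 20.1 rpkm and Itgam, which encodes CD11b, 44.7.

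Among secreted and lipid-handling products, 20 of 30 were detected. The calcium-binding proteins S100a4 and S100a6 had 5585 and 879 rpkm, the lectin galectin-3 (Lgals3) 680, S100a10 549 and Lyz1 317. Lipoprotein lipase (Lpl) had 265.1 rpkm and osteopontin (Spp1) 213. Several products known from tissue macrophages were low, namely Apoe at 1.95 rpkm and the complement chains C1qa, C1qb and C1qc at 0.264, 0.0592 and 0.113 rpkm. The metalloproteinase gene Mmp13 had no read, Mmp12 had 42 counts and Mmp9 had 7.

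Of 32 transcription factors of macrophages beside Spi1, 25 reached 1 rpkm at a median of 6.98. The interferon regulatory factor Irf5 had 132 rpkm, Cebpb 90.6, the Ets factor Fli1 36.8, Zeb2 35.6 and Irf8 35.1. Maf, which encodes c-Maf, had no read. Among the factors of the MiT family, Mitf had 9.60 rpkm, Tfe3 23.6, Tfeb 10.3 and Tfec 0.194. Batf3 had 2 counts and Pparg 12.

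Of the factors and surface proteins that mark macrophages of single tissues, 3 of 5 in the Kupffer cell list had no read, 3 of 5 in the alveolar list, 4 of 6 in the serosal and red pulp list and 1 of 6 in the microglial list, against 36.6% of all genes. Clec4f, Timd4 and Vsig4 of Kupffer cells had no read, and Id3 alone of that list was detected, at 29.9 rpkm. Marco, Car4 and Fabp1 of the alveolar list had no read. Gata6 and Selp of serosal macrophages and Spic and Vcam1 of red pulp macrophages had none either, while the haem oxygenase gene Hmox1 had 67.7 rpkm. Of the microglial list, Cx3cr1, which other macrophages share, had 164 rpkm, P2ry12 had 3.20, Tmem119 0.894 and Sall1 no read.

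The osteoclast list was partly present, with 6 of 11 genes detected, against 43.1% of all genes with a length. Osteoclasts are formed from cells of this lineage by RANKL, and its receptor gene Tnfrsf11a had 20.1 rpkm. The fusion gene Dcstamp had 10.9 rpkm, the factor Nfatc1 7.12, the acid phosphatase Acp5 4.16 and Ocstamp 1.61. Low in this list were cathepsin K (Ctsk) at 44 counts, Itgb3 at 1 count and the calcitonin receptor Calcr without a read.

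Of the classical activation list 4 of 12 genes were detected and of the alternative activation list 3 of 11, against 43.1% of all genes with a length. Nos2, the inducible nitric oxide synthase of classical activation, had 5 counts, and Il12b had none. Irg1, which makes itaconate, was the highest of that list at 4.69 rpkm. Arg1, the arginase of alternative activation, had 1 count, and Chi3l3, Retnla, Ccl17 and Cd209a had none. The lectin genes Clec10a and Mgl2 of the same list had 7.73 and 1.69 rpkm.

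Markers of other cell types were at or near 0. Of 105 such genes in 12 lists, 59 had no read and 4 reached 1 rpkm, against 43.1% of all genes with a length. Their counts summed to 149 cpm, of which all but 24.1 cpm fell on Mbp, against 6023 cpm for the 4 macrophage markers. Mbp, known for myelin basic protein, had 18.3 rpkm, and its locus also gives the Golli transcripts of haematopoietic cells. The other 3 were Cxcr2 at 3.80, S100a8 at 1.23 and Csf3r at 1.09 rpkm, all from the neutrophil list, in which Mpo, Ltf, Ctsg, S100a9, Ngp, Camp and Mmp8 had no read. Cd3e, Cd3g and Zap70 of T cells, Ms4a1, Pax5 and Ebf1 of B cells, Col1a1 and Col1a2 of fibroblasts and Cdh1 and Epcam of epithelium had no read. Of the dendritic cell list Flt3 and Cd209a had no read and Siglech was highest at 0.858 rpkm.

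**Figure D3:**
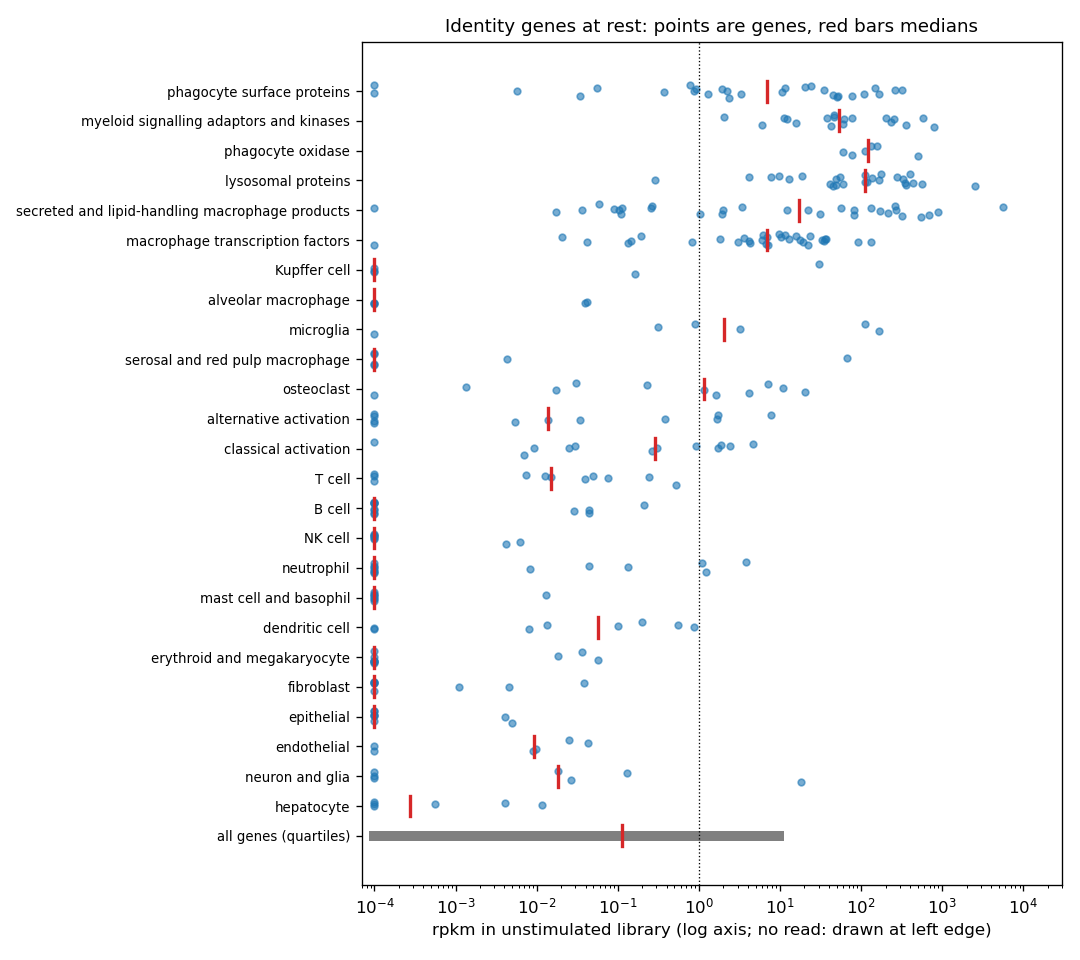
Level of each listed gene in the unstimulated library (horizontal axis, rpkm, log scale) for 6 lists of macrophage identity, 7 of specialised macrophage states and 12 of other cell types, with medians as red bars and the quartiles of all genes in grey. The identity lists lie mostly right of the dotted line at 1 rpkm, and 4 of 105 genes of other cell types do.

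The receptors for microbial products were unequal. Of the 19 Toll-like receptors and co-receptors, 13 reached 1 rpkm. Cd14 had 320 rpkm (317 to 322) and Tlr4, whose gene lies at chr4:66827551-66846581 on GRCm38, had 8590 counts and 16.3 rpkm (16.0 to 16.7). Per length, Cd14 mRNA was 19.6 times as abundant as Tlr4 mRNA (19.2 to 20.1). Ly96, which encodes the LPS-binding partner MD-2, was the lowest of the 3, with 497 counts and 6.0 rpkm (5.49 to 6.55), and the ratio of Tlr4 to Ly96 was 2.72 (2.48 to 2.98). The soluble LPS carrier Lbp, a product of the liver, had 1 count.

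Tlr2, the receptor of bacterial lipopeptides, was the most abundant Toll-like receptor at 127 rpkm (126 to 128), which was 7.80 times Tlr4. Its partners Tlr1 and Tlr6 had 4.02 and 2.23 rpkm, so that Tlr2 exceeded Tlr1 by 31.7 times and Tlr6 by 56.9 times. The receptors of nucleic acids were led by Tlr7 at 28.4 rpkm, which binds single-stranded RNA, and Tlr13 at 17.0 rpkm, which binds bacterial ribosomal RNA. Tlr9 for unmethylated CpG DNA had 1.1 rpkm, Tlr3 for double-stranded RNA 0.205 and Tlr8 5 counts. Tlr5, Tlr11 and Tlr12, the receptors of flagellin and profilin, had no read.

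The order of levels was thus Tlr2, Tlr7, Tlr13, Tlr4, Tlr1, Tlr6, Tlr9, Tlr3 and Tlr8. Tlr13 and Tlr4 differed by 1.04 times (1.01 to 1.08), and between libraries the spread was wider than that counting interval, as described below. The trafficking proteins of these receptors were high, with the chaperone Hsp90b1 at 528 rpkm and Unc93b1 at 125. Cd180, a relative of Tlr4 that restrains it, had 15.7 rpkm and its partner Ly86 had 97.1.

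Over the 8 libraries, as cpm without Rn45s, the unstimulated library was the lowest for Tlr2, with 411 against 438 to 1190. Cd14 had 554 at rest, 496 in the lowest and 1771 in the highest stimulated library. Tlr4 had 71.7 at rest and 30.5 to 80.5 later, and Ly96 4.15 at rest and 4.05 to 5.26 later. Ly96 therefore kept within 1.30 times over the time course, and the other 3 spanned 2.64 to 3.57 times.

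**Figure D4:**
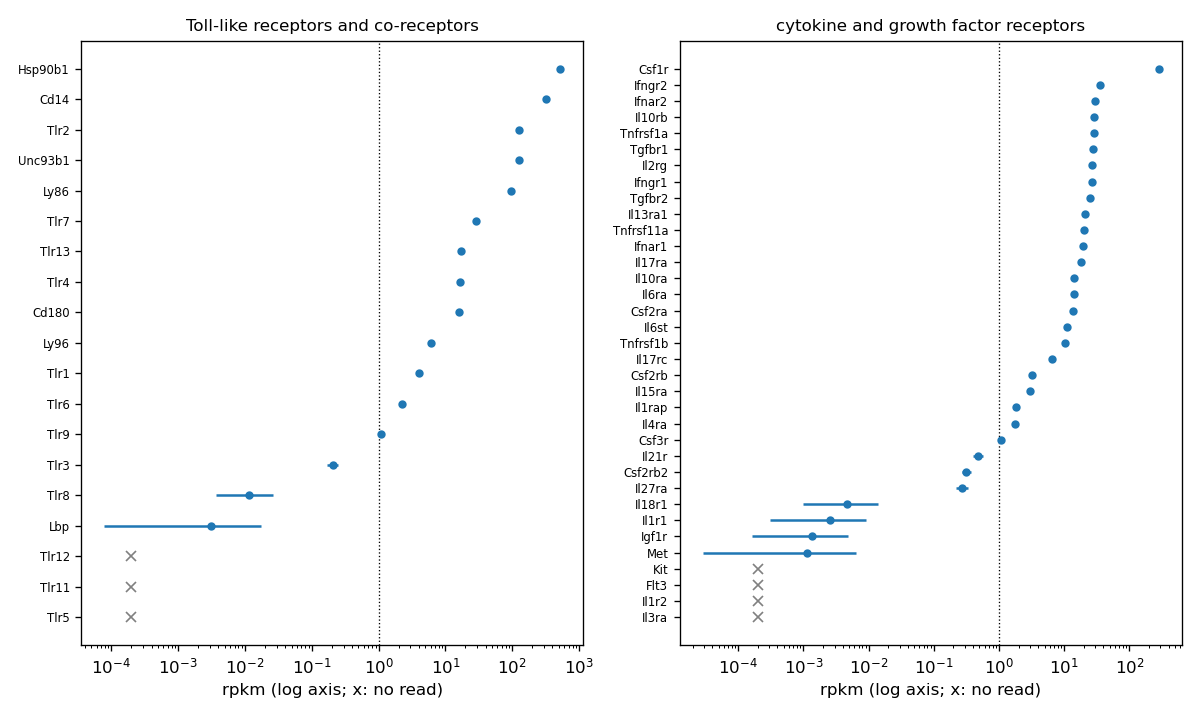
Level in the unstimulated library (horizontal axes, rpkm, log scale) of 19 Toll-like receptors and co-receptors (left) and 35 cytokine and growth factor receptors (right), with 95% Poisson intervals that cover counting error. Cd14 and Tlr2 exceed Tlr4 in the left panel, Csf1r stands above all others in the right panel, and crosses mark genes without a read.

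Sensors of the cytosol were detected for 12 of 19 genes, at lower levels (median 1.79 rpkm). The DNA sensor Mb21d1, which makes cyclic GMP-AMP, had 16.0 rpkm and its target Tmem173, known as STING, 13.2. Nlrp1a had 9.65, Nlrp3 8.96 and Naip2 7.81 rpkm. The RNA helicases of the interferon response were lower, with Ddx58 (RIG-I) at 1.20 and Ifih1 (MDA5) at 0.303, and the peptidoglycan sensors Nod2 and Nod1 had 0.779 and 0.0175 rpkm. Nlrp1a and Nlrp1b, like the Naip genes, are close copies, and their levels are uncertain.

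Of 15 C-type lectins, 10 were detected. The highest were Clec4d at 84.1 rpkm, Clec5a at 59.3, Clec12a at 48.8, Clec4e, the Mincle receptor of mycobacterial glycolipid, at 42.6 and Clec7a, the beta-glucan receptor dectin-1, at 11.4. Cd209a had no read. Of 15 scavenger receptors 7 were detected, a share near the 43.1% of all genes, with Cd36 and Msr1 at 150 and 78.0 rpkm, and Marco, Stab2 and Mertk had no read.

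Receptors for antibody and complement were detected in 12 of 16 cases. The common chain Fcer1g had 205 rpkm, the integrin chain Itgb2 70.1, Cr1l 55.2, the high-affinity IgG receptor Fcgr1 51.4 and Itgam 44.7. Vsig4 and Cr2 had no read. Activating Fcgr3 stood at 10.5 rpkm and the inhibitory Fcgr2b at 2.22.

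Among 26 receptors for chemokines, lipids and nucleotides, 12 were detected, a share close to the 43.1% of all genes. Cx3cr1 dominated this list, and next came the UDP receptor P2ry6 at 26.4 rpkm, the ATP channel P2rx7 at 5.25, the prostaglandin receptor Ptger4 at 4.49 and Cxcr2 at 3.80. Ccr2 of inflammatory monocytes had 2.37 rpkm, Ccr1 had 0.129 rpkm, and Cxcr1, Fpr1, Fpr2, Cxcr7 and Ptger2 had no read.

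Of 35 receptors for cytokines and growth factors, 24 were detected. Csf1r exceeded the GM-CSF receptor chain Csf2ra by 21.1 times (20.4 to 21.9). Receptors for interferons were present in both chains, with 35.5 and 26.5 rpkm for Ifngr2 and Ifngr1 and 30.1 and 19.2 for Ifnar2 and Ifnar1. Il10rb and Il10ra, through which interleukin-10 restrains macrophages, had 28.4 and 14.0 rpkm, and the TNF receptors Tnfrsf1a and Tnfrsf1b 28.4 and 10.2. The receptor of interleukin-1 was the counterpart, as Il1r1 had 2 counts and Il1r2 none, although its accessory chain Il1rap had 1.85 rpkm. Il18r1 had 3 counts, Igf1r 2 and Met 1, and Il3ra, Kit and Flt3 had no read.

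Inhibitory receptors were detected for 10 of 15 genes. Lilrb4 had 124 rpkm, Sirpa 109, Clec12a 48.8, Cd300a 37.5 and Vsir, listed as 4632428N05Rik, 26.9. Pdcd1lg2 had no read, Cd274, which encodes PD-L1, had 0.530 rpkm, and Pdcd1 had 55 counts. Lilrb3 belongs to a group of near-identical genes and is uncertain.

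The signalling proteins that connect Tlr4 to the nucleus were detected almost throughout. All 13 adaptors, IRAKs and TRAFs and all 24 kinases reached 1 rpkm, with medians of 9.63 and 14.1. Myd88 had 54.9 rpkm, Irak1 20, the inhibitor Tollip 17.6, Irak4 11.8 and Traf2 10.0. Per length, Myd88 mRNA was 22.3 times as abundant as that of Ticam1 (TRIF), which had 2.46 rpkm (ratio interval 20.8 to 23.8), and Ticam2 (TRAM) had 1.77. Of the kinases, Mapkapk2, which acts below p38 on mRNA stability, led at 312 rpkm, followed by Akt1 at 80.8, Map2k1 at 78.6, Map2k3 at 53.4 and Map2k2 at 40.4. Of 19 transcription factors of the pathway 17 were detected (median 18.2 rpkm), with Nfkb1 at 42.5, Rela at 11.3 and Irf3 at 19.5, and the 2 below the limit were Rel at 0.951 and Irf7 at 0.836.

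The mRNAs of feedback inhibitors were present more widely than those of cytokines. Of 53 genes that the study lists as feedback inhibitors, 45 were detected at a median of 7.75 rpkm. Of its 114 cytokines, 17 were detected and 60 had no read. The background shares were 43.1% detected over genes with a length and 36.6% without a read over all genes. Ppp1ca, a phosphatase catalytic subunit, led the inhibitors with 211 rpkm, followed by Cited2 at 142, Nfkbia, the NF-kB inhibitor IkBa, at 81.3, Exosc9, a subunit of the RNA exosome, at 45.1 and Tnip3 at 40.8. Nfkbia exceeded the deubiquitinase gene Tnfaip3 (A20) by 25.3 times per length (24.1 to 26.6), and Tnfaip3 had 3.21 rpkm. Proteins that destabilise inflammatory mRNAs were also present, with Khsrp at 22.6 rpkm, Zfp36l2 at 22.7, Rc3h2 and Rc3h1 (roquins) at 10.1 and 5.09 and Zc3h12a (regnase-1) at 1.94. Twist1 and Twist2 had no read, Socs1 had 32 counts, and the MAP kinase phosphatase gene Dusp1 had 2.29 rpkm.

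The cytokine mRNAs at rest were led by 1 gene. Mif, the macrophage migration inhibitory factor, had 58624 counts and 919 rpkm. It was followed by the chemokine genes Ccl9 at 90.7 rpkm, Ccl3 at 74.1 and Cxcl14 at 56.9. The next in order were Tnf at 50.3, the membrane-bound chemokine Cxcl16 at 36.6, Ccl4 at 25.8, Tnfsf9 at 23.3, lymphotoxin beta (Ltb) at 21.8 and Tgfb1 at 14.9. Other members were near 0 at rest, with 5 counts for Il10, 1 for Il6, 4 for Lif and 3 for Csf3. All 12 alpha interferon genes of the table, Ifnb1, Ifng, Il12a, Il12b, Cxcl1, Cxcl3, Csf2, Ccl12 and Ccl20 had no read.

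**Figure D5:**
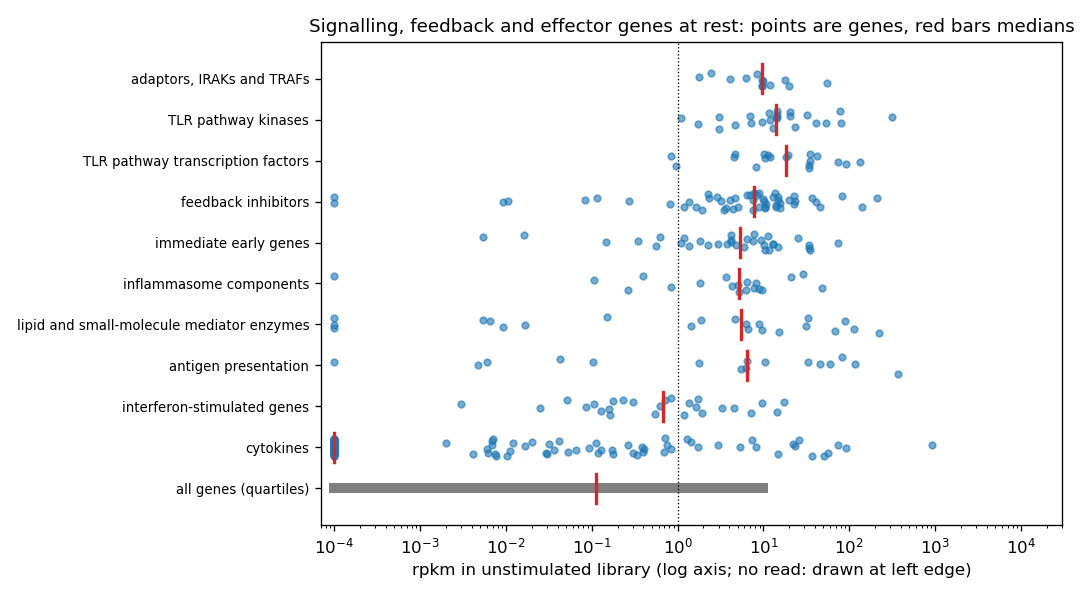
Level of each listed gene in the unstimulated library (horizontal axis, rpkm, log scale) for the TLR pathway, feedback inhibitors, immediate early genes and effector lists, with medians as red bars and the quartiles of all genes in grey. The medians of the pathway lists lie between 9.63 and 18.2 rpkm, that of the inhibitors at 7.75, and that of the cytokines at 0, drawn at the left edge.

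Of 34 immediate early genes, whose transcription follows a stimulus without new protein synthesis, 28 were detected (median 5.38 rpkm). Junb had 74.3 rpkm, Jund 35.3, Srf 34.1, Fos 33.6 and Ier2 25.3. The family was not uniform, since Egr2 had 4.17 rpkm and Egr1 0.146, and Fosb and Nr4a3 had 8 and 4 counts.

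The enzymes of lipid and small-molecule mediators were detected for 14 of 22 genes. Alox5, Alox5ap, Lta4h and Ltc4s, which make leukotrienes, had 33.2, 114, 31.4 and 6.69 rpkm. Pla2g4a, the phospholipase that frees arachidonic acid, had 88.6 rpkm. Of the prostaglandin enzymes Ptges3 had 220 rpkm, Ptgs1 9.57, Ptgs2 1.90 and Ptges 0.149. Ch25h, Ido1 and Pla2g7 had no read, and Arg2 had 3 counts.

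In the inflammasome list 14 of 19 genes were detected and 1 had no read. Casp1 had 48.6 rpkm, the pore protein gene Gsdmd 28.6, Nek7 20.7, Nlrp1a 9.65 and Nlrp3 8.96. Of the substrates, Il18 had 8.12 rpkm and Il1b 0.264 (45 counts). Pycard, which encodes the adaptor ASC between Nlrp3 and caspase-1, had 0 counts at rest and 2 counts in 1 stimulated library, at 90 min. Its gene lies at chr7:127991373-127993867 on GRCm38. Of the genes near it, Prss36 had 158 counts, Trim72 4 and Itgam 27424. These genes, like the neighbours of Cdkn2a below, were looked up after the values were seen.

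Of 26 genes that interferons induce, 11 were detected, a share near the 43.1% of all genes. Their median was 0.670 rpkm, against 0.111 for all genes with a length. Oas1a had 17.5 rpkm, the tetherin gene Bst2 14.5, the kinase PKR gene Eif2ak2 9.58 and Oasl1 4.55. Mx1 had 1 count, Rsad2 25 and Isg15 57.

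Antigen presentation was split by class. For class I, B2m had 367 rpkm, H2-D1 81.2, H2-K1 60.3, Tapbp 32.8 and the immunoproteasome gene Psmb8 46.0. For class II, H2-Ab1 had no read, H2-Eb1 1 count, H2-Aa 6 counts and the class II transactivator Ciita 5 counts. The class II invariant chain Cd74 was the exception at 116 rpkm and 21537 counts, and H2-DMa had 5.51 rpkm. H2-D1 and H2-K1 are close copies of each other, and their levels are uncertain.

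The cells carried the RNAs of a dividing culture. Of 30 proliferation genes, 29 were detected at a median of 77.5 rpkm. The replication clamp Pcna had 493 rpkm, the helicase subunits Mcm5, Mcm3 and Mcm6 194, 178 and 164, and the D-type cyclin Ccnd1 176. Its relatives Ccnd3 and Ccnd2 had 31.8 and 0.366 rpkm. Mki67, the marker of cycling cells, had 94744 counts and 74.0 rpkm.

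Among 12 inhibitors of the cell cycle and tumour suppressors 9 were detected, and Cdkn1c, Cdkn2a and Cdkn2b had no read. Trp53 had 40.9 rpkm, Cdkn2c 37.6, Cdkn2d 33.7 and Rbl1 27.4. Cdkn2a and Cdkn2b, which encode p16INK4a with p19ARF and p15INK4b, had no read in any of the 8 libraries. They are neighbours on GRCm38 at chr4:89274473-89294619 and chr4:89306289-89311032. The gene before them, Mtap, had 13737 counts and 38.3 rpkm, and those after them, Dmrta1, Zfp352 and Elavl2, had no read. Whether the locus is present in these cells was not tested.

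Glycolysis was represented by 20 of 20 genes at a median of 80.6 rpkm. Pkm had 3514 rpkm, Aldoa 888, the lactate dehydrogenase gene Ldha 779, Pgk1 627 and Pgam1 532. Gapdh was listed at 209 rpkm, but it has many pseudogenes, and reads that matched more than 1 gene symbol had been discarded. Hexokinases were led by Hk2 at 27.4 rpkm, and glucose transport by Slc2a1 at 34.4.

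The mRNAs of iron storage were high and that of the iron exporter was low, with 9 of 11 genes of iron handling detected. The ferritin genes Ftl1 and Fth1 had 3873 and 888 rpkm, and the transferrin receptor Tfrc 163. The exporter ferroportin (Slc40a1) had 0.696 rpkm and Hamp, the liver hormone that controls it, no read. All 18 cytoskeletal genes were detected at a median of 478 rpkm, led by Actb at 4189, Tmsb4x, a monomeric actin binder, at 1353, Tuba1b at 1257, Pfn1, profilin, at 1195 and Vim at 842.

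The RNAs of the sex chromosomes were those of a male line. Eif2s3y, Ddx3y, Kdm5d and Uty had 29.8, 15.0, 3.99 and 3.99 rpkm, whereas Xist had 1 count and Tsix and Zfy1 none. Of the long non-coding RNAs Malat1 had 289864 counts and 322 rpkm and Neat1 17.2 rpkm. Both are known as nuclear RNAs, and the study describes total RNA for this time course, although the label gives a cytoplasmic fraction. The unstimulated library had the lowest Malat1 of the 8, 2420 cpm without Rn45s against 3024 to 4606. H19 had no read and Meg3 1 count.

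Genes without a read were counted in named families, and the sensory receptors were the first of these. Of 1121 olfactory receptor genes 1084 had no read, of 189 vomeronasal receptors of type 1 186, of 127 of type 2 117 and of 35 bitter taste receptors 33. Of 52 keratins 44 had no read, of 52 keratin-associated proteins 50, of 43 beta-defensins 42, and none of 16 alpha-defensins or 12 alpha interferons had one. These 9 families lacked a read in 1584 of 1647 genes, against 36.6% of all genes. The members with a read included Olfr613 with 990 counts and 1.52 rpkm, Vmn2r-ps129 with 616 counts, Vmn1r58 with 455 counts and Olfr856-ps1 with 3.55 rpkm. Of 580 microRNA precursors 505 had no read.

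Further families were read against the same 36.6% of all genes without a read and 43.1% at 1 rpkm. Of 43 collagens 23 had no read and 2 reached 1 rpkm, of which Col4a5 had 19256 counts and 22.5 rpkm. Of 71 protocadherins 29 had no read, a share near that of all genes, and 50 had at most 3 counts, while Pcdh7 had 28458 counts and 21.5 rpkm. Of 40 Hox genes 22 had no read and 5 were detected, with Hoxb7 at 13.9 rpkm. Of 29 reproductive homeobox genes 24 had no read, yet Rhox5 had 42.1 rpkm. Among 94 potassium channels 6 were detected, and the calcium-activated channel Kcnn4 stood out with 105 rpkm. These 5 genes were picked once their values were known.

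Of the 8477 genes without a read at rest, 6176 had none in any library, and 2301 had at least 1 later. Of these, 5 reached 1 cpm (without Rn45s), each with its highest value at 120 min. Cish, an inhibitor of cytokine receptor signalling, reached 8.86 cpm (1281 counts), Ifnb1, the interferon beta gene, 2.89 (418), Gm14047 1.97 (285), Csf2, the gene of GM-CSF, 1.67 (241) and Lad1 1.01 (146). The next 5 were Il33, Gm4907, Mmp14, Ccl20 and Gfpt2, at 0.472 to 0.768 cpm. Of these 10 genes, 4 encode cytokines (Ifnb1, Csf2, Il33 and Ccl20), and Cish is the one that passed 3 cpm.

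To see how far 2 libraries of these cells lie apart, the unstimulated library was set against the 15 min library, which also holds the first response to LPS. This compares 2 libraries and not conditions. Over 11496 genes with at least 50 counts in both together, 32 (0.278%) were more than 2-fold higher at 15 min and 15 (0.13%) more than 2-fold lower, on cpm without Rn45s. The standard deviation of the log2 ratio over genes was 0.35 below 1 rpkm, 0.18 at 1 to 10 and 0.15 at 10 to 100. It was 0.16 at 100 to 1000 rpkm and 0.15 at 1000 and above. The median log2 ratio shifted with abundance, from 0.0765 below 1 rpkm and 0.0709 at 1 to 10 to -0.0747 at 100 to 1000 and -0.129 at 1000 and above. Levels above 1 rpkm were thus close in both libraries apart from this small shift with abundance. A ratio of Tlr13 to Tlr4 as small as the one above lies within the spread over genes.

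The genes that were higher at 15 min were led by Rorb, at 15 and 106 counts (7.88-fold, 95% interval 4.57 to 14.6), Ppp1r15a (4.44-fold), Cxcl2 (3.93-fold), Jun (3.90-fold), Nfkbiz (3.71-fold) and Tnf (3.32-fold). Of 32 immediate early genes compared, 9 were among the higher genes, as were 5 of 49 feedback inhibitors and 2 of 28 cytokines. None of 14 Toll-like receptors and co-receptors, 25 phagocyte surface proteins or 26 lysosomal genes passed 2-fold in either direction. With 0.278% and 0.13% of all genes past it, nothing particular to these lists can be read from that. Among the lower genes were Pdcd1, at 55 and 17 counts (0.345-fold, interval 0.187 to 0.603), and the small nucleolar RNAs Snord17 (0.442-fold) and Snora74a (0.461-fold).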

How the data were processed

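RNA of 8 RAW264.7 cultures, 1 per time point, had been sequenced after ribosomal RNA depletion with a directional kit. The deposited values are raw read counts per gene symbol in 1 table, without normalization. Following the methods of the study, 58-base reads were mapped with Bowtie (version not given in the sources used here) to RefSeq transcripts of mm10 with at most 2 mismatches, and the authors left out reads that fitted several gene symbols. That lowers genes with close copies. Whether counting used the strand is not stated, so antisense partners cannot be told apart. The submitters' processing notes name CASAVA 1.8.2 and DESeq 1.10.1.

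From the counts, cpm was computed with and without Rn45s, and rpkm after the formula of the study, with 58-mers found in 1 gene only, counted over the GENCODE vM21 transcripts (GRCm38) that share a RefSeq accession with a gene, or a symbol for 104 genes. The authors' own lengths were not used here. Of the listed genes, 5 were not found in the table. Intervals are exact (Poisson, Clopper-Pearson or conditional binomial) and cover counting error only. Promoters and coordinates are RefSeq entries for GRCm38.p6; Spi1 and Rplp1, which the naming rule also covered, had none in the table used, and Rpl41 was the next ribosomal protein gene by rpkm with one. The tools were scipy 1.17.1, pandas 2.3.3, numpy 2.4.6 and matplotlib 3.10.9 under Python 3.11.15, and edgeR 4.0.16 under R 4.3.3. The interval and fold rules were tested on simulated Poisson counts without variation between libraries. That checks the computation and not whether the intervals hold for real libraries.

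Genes, lists and families were chosen with earlier results of these data known. The naming rule was the 20 highest by cpm and by rpkm, up to 5 members per list by rpkm, list members without a read, and 10 genes silent at rest with the highest later cpm. Some genes that this rule covers are not reported here. Any further gene named was chosen after its values were seen. Alternatives covered the scale, the length, the detection limits, the count minimum and the fold limit.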

Additional observations from a re-analysis of the deposited data

How the results depend on the processing

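No paired analysis was possible because each time point has 1 library, and for the same reason no replicate could be left out. Of the counts of list members at 1 rpkm or more, those that moved by more than 1.5 times did so with 1 cpm as the limit, which gave 1 T cell gene and 2 dendritic cell genes in place of 0 each. The number of detected genes was 9764 and fell to 5601 at 10 rpkm. The share of the 20 leading RNAs, 18.3%, was 10.8% without Rn45s and 9.07% with mRNA accessions alone. Without a filter on low counts, 1047 genes were past 2-fold higher and 978 lower at 15 min in place of 32 and 15, and at 1.5-fold 129 were higher and 92 lower. Genes silent at rest that reached 1 cpm later numbered 5, were 12 when up to 3 counts were taken as silent, and 0 at 10 cpm. Of the 4 markers, Spi1 spanned more than 1.5 times over the 8 libraries on the other scales (1.60 by TMM or median of ratios, 1.53 with all counts). Leaving out members with fewer than 10 counts moved 25 list medians by more than 1.5 times and 21 by less, and another total or length moved none of the 51 by that much. Counts of family members without a read moved by that much in 4 families with up to 3 counts taken as silent and in 8 with no read in any library. Small RNAs near the read length have few unique 58-mers, so their rpkm is unreliable, and with 1 library no value has an error beyond counting.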
